A study of Mus musculus with 12 samples.

Results

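The transcripts of 10 secreted proteins that act against microbes at mucosal surfaces were followed in mouse forestomach: Lcn2, Slpi, Ltf, Camp, Defb1, Defb4, Defb6, Pglyrp1, Pglyrp3 and Pglyrp4. They were chosen by name, as every probe whose gene name in the scanner files is 1 of these 10. The rule found 11 of the 41174 probes on the array, for 8 of the 10 names. Neither Defb4 nor Pglyrp4 had a probe under its own name. A probe named Defb3 lists accessions of Defb3, Defb8 and Defb4 together and so cannot give Defb4 a value of its own.

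Whole forestomach of adult C57BL/6J wild-type mice was measured on 12 two-colour arrays, 4 per group. Control mice were given supersaccharin with 0% alcohol, 4-week mice 20% alcohol in supersaccharin, and 40-week mice 15% alcohol, for which the labels name no saccharin. Forestomach RNA was in Cy5 and a commercial mouse reference RNA in Cy3 on every array, so each value is a log2 ratio of forestomach to reference, with no dye swap. The 40-week group had no control of its own duration. Nothing in the labels says whether replicates came from separate animals, so the p-values reflect only the variation among the samples given, which may be technical.

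These proteins work in different ways. Defensins and cathelicidin (Camp) disrupt microbial membranes, lipocalin 2 (Lcn2) binds bacterial siderophores and lactotransferrin (Ltf) binds iron, so both withhold iron from microbes. Peptidoglycan recognition proteins (Pglyrp) bind the bacterial cell wall, and the protease inhibitor Slpi restrains neutrophil elastase besides killing microbes. Defensins, Slpi and Pglyrp3 are typically made by epithelial cells, whereas Camp, Ltf, Lcn2 and Pglyrp1 are also stored in neutrophil granules.

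The probes are 60 bases long, and their positions are on mouse build mm9 as the files give them. The 5 probes below are shown because the results turn on them. Camp was not measured above background, Ltf and Lcn2 depend on single arrays, and Pglyrp3 differed most steadily at 40 weeks on the deposited values. They read as coding sequence, although no annotation of that build was used here. The pair for Ltf measures separate stretches of that transcript. The Camp probe lies in the stretch that encodes the mature antimicrobial peptide.
Camp, chr9:109749992-109750051, minus strand: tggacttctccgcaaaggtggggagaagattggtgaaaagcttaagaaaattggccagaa
Ltf, first probe, chr9:110938264-110941314, plus strand, spanning an intron: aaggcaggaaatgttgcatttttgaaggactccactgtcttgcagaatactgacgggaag
Ltf, second probe, chr9:110942873-110942932, plus strand: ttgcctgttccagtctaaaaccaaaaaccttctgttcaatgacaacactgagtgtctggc
Lcn2, chr2:32241037-32241281, minus strand, spanning an intron: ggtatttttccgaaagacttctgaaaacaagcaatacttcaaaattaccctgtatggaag
Pglyrp3, chr3:91832057-91834557, plus strand, spanning an intron: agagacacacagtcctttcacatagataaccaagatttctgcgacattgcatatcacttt

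The other probes lie at chr8:22905030-22905089 and chr8:22905041-22905100 (Defb1), chr7:19475659-19475718 (Pglyrp1), chr2:164179849-164179908 and chr2:164185063-164185122 (Slpi) and chr8:19228090-19228149 (Defb6). The Defb1 probes share a run of 49 bases and are close to repeat measurements of 1 sequence. The Ltf probes share no run longer than 5 bases.

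The filter kept probes that the scanner software marked as well above background in Cy5 on 3 or 4 arrays of the control group, or of the 4-week group. It kept 8 member probes of 6 genes. They were both Defb1 probes, both Ltf probes and 1 probe each of Slpi, Pglyrp3, Lcn2 and Pglyrp1. The Camp probe and the second Slpi probe were well above background in Cy5 on 0 of 8 arrays. Defb6 was so on 2 of 4 control and 2 of 4 4-week arrays. Scanner signals of the 40-week arrays were not analysed here, so whether a probe was above background at 40 weeks is not known.

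**Figure D1:**
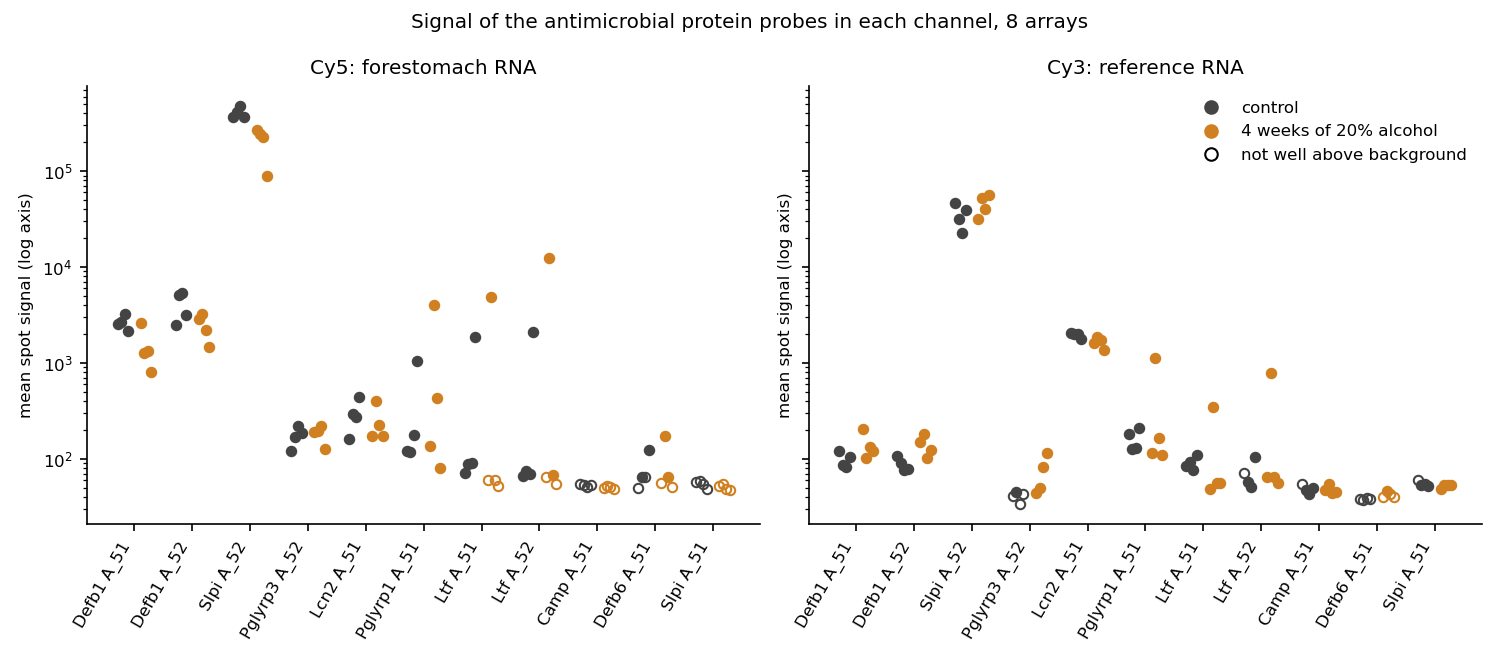
Mean spot signal on a logarithmic axis for the 11 probes on the 4 control and 4 4-week arrays, forestomach RNA (Cy5) on the left and reference RNA (Cy3) on the right, with open points where the signal was not well above background. Camp and the second Slpi probe are open on all 8 arrays in Cy5, and single high points of Pglyrp1 and Ltf stand out in each group.

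All 13 squamous keratinocyte markers measured were well above background in Cy5 on all 8 arrays, squamous epithelium being the lining of the forestomach. A total of 3 arrays carried transcripts of other organs. Glandular stomach genes were over 1 log2 unit above every other sample of their group in control replicate 4 (10 of 12 genes) and 4-week replicate 2 (8 of 12). Pancreas genes were so in control replicate 3 (11 of 11) and 4-week replicate 2 (4 of 11). The 40-week replicates 3 and 4 differed from all other samples in Xist and the Y-linked Ddx3y, with 0.63 and 0.11 against -2.25 to -0.82, and -4.26 and -4.02 against 0.49 to 1.49. The control arrays were all on one slide and the 4-week arrays on another, so slide and group cannot be told apart. In bulk tissue, fewer cells of a type and less RNA per cell cannot be told apart either.

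The first question is what 4 weeks of 20% alcohol did to these transcripts. No member probe passed the test, 0 of 8, where 0.755% of all 30455 probes did and 0.575% were called lower (limma, adjusted p under 0.05). At an unadjusted p under 0.05 the count over all probes was 5415. The largest differences were lower ratios of Defb1 and Slpi, while Pglyrp3 and Pglyrp1 had higher ones, and values are given for each member below.

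Defb1, a beta-defensin that epithelia make without induction, had ratios of 5.10, 5.23, 5.62 and 4.79 on the control arrays and 4.77, 4.24, 4.21 and 4.32 on the 4-week arrays with its first probe. All 4-week values lay below all control values, although the highest 4-week value nearly reached the lowest control. Of the 7 member probes measured on all 8 arrays, 1 separated in this way, against 11.7% of all probes in either direction and 5.85% lower. The log2 difference was -0.80 ± 0.20 (SE, n = 4 against 4; limma adjusted p = 0.0983). With the second probe the control ratios were 5.10, 6.16, 6.47 and 5.69 and the 4-week ratios 5.32, 4.95, 5.25 and 5.26. Here the groups overlapped, and the difference was -0.66 ± 0.27 (limma adjusted p = 0.248).

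The channels of Defb1 did not move alike. Taken alone, Cy5 differed by -0.22 and -0.01 for the first and second probe (limma adjusted p = 0.753 and 0.985). The reference channel Cy3, which holds the same commercial RNA on every array, differed by 0.55 and 0.60, the second past the threshold (limma adjusted p = 0.0579 and 0.0179). The reference was thus brighter on the 4-week slide at these probes. Of 13 squamous markers, 11 were also called higher in Cy3 alone. Over all 30455 probes 1483 were called higher and 685 lower in that channel.

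The call for Defb1 depended on how the ratios were made. The first probe passed the test without background correction (-1.05, limma adjusted p = 0.0369). Both probes passed with the scanner software's own ratios (-1.18 and -1.22) and with the deposited values (-1.05 and -0.97). All of these are ratios and contain the brighter reference channel.

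Slpi, the secretory leukocyte protease inhibitor, gave very bright spots with its probe for the RefSeq transcript. Its Cy5 signal was 364482, 411854, 479664 and 370727 on the control arrays and 265828, 247234, 225558 and 89176 on the 4-week arrays, none of them flagged as saturated. Every 4-week signal was below every control signal, but overall Cy5 brightness was lower on the 4-week arrays as well, with medians over all probes of 42.4 to 112 above local background against 112 to 151. After normalisation the ratios were 3.71, 3.83, 4.19 and 3.43 in controls and 3.89, 2.49, 3.30 and 2.38 at 4 weeks. The groups overlapped, since 4-week replicate 1 was among the control values. The difference was -0.78 ± 0.33 (SE, n = 4 against 4; limma adjusted p = 0.265).

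The second Slpi probe, for the accession U73004, gave no Cy5 signal well above background on any of the 8 arrays. In the 4-week replicate 4 column it is listed at 0, the value the table holds where a spot was not above its local background. It lies elsewhere on chromosome 2 and says nothing about the level that the first probe measured.

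Pglyrp3, a peptidoglycan recognition protein of squamous epithelia, had control ratios of 0.98, 1.33, 2.08 and 1.46. The 4-week ratios were 2.11, 1.91 and 1.98 in replicates 1 to 3, and replicate 4 was left out because its spot was flagged as an outlier. The groups overlapped at control replicate 3. The difference was 0.54 ± 0.24 (SE, n = 3 against 4; limma adjusted p = 0.295). Its sign turned to -0.67 with the scanner software's ratios and to -0.13 with the deposited values. Its Cy3 signal was well above background on 1 of 4 control arrays and 4 of 4 4-week arrays, so the reference side of this ratio is dim.

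Lcn2 was below the reference in every sample. Its ratios were -2.03, -1.84, -2.01 and -0.97 on the control arrays and -1.90, -1.22, -1.68 and -0.92 on the 4-week arrays. The highest control value was again replicate 4, and the groups overlapped. The difference was 0.28 ± 0.29 (SE, n = 4 against 4; limma adjusted p = 0.652).

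Ltf was raised on a single array of each group. With the second probe the control ratios were 0.03, 0.14, -0.01 and 4.78 and the 4-week ratios -0.08, 4.84, 0.26 and 0.11. The first probe gave 0.10, 0.03, 0.30 and 4.53 in controls and -0.14, 4.69, 0.03 and -0.03 at 4 weeks. Both probes, which share no sequence, thus put control replicate 4 and 4-week replicate 2 far above the rest. The group differences were 0.05 ± 1.37 and -0.10 ± 1.33 (SE, n = 4 against 4; limma adjusted p = 0.991 and 0.979).

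The same arrays were those with glandular stomach transcripts. The summed Cy5 signal above local background of 12 glandular stomach genes was 1564890 in control replicate 4 and 1840450 in 4-week replicate 2, against 777 to 22395 on the other 6 arrays. The Cy5 signal of the second Ltf probe was 2123 and 12304 on these arrays and 54.8 to 73.7 on the others. Cy3 of that probe was also highest there, 104 and 786 against 51.3 to 71.3, though that channel holds the reference. The neutrophil list had a summed Cy5 signal of 1564 and 930 on these arrays and 434 to 1538 elsewhere, with 2 and 0 of 11 genes over 1 log2 unit above the other samples of the group. Ngp, a neutrophil granule gene of that list, was not well above background on any of the 8 arrays. The part of the glandular stomach transcripts in the Ltf values was not tested.

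Pglyrp1, which is known from granulocytes and some epithelia, showed the same arrays high and 1 more. Its ratios were 0.24, 0.18, 0.78 and 2.94 in controls and 0.91, 2.76, 2.31 and 0.53 at 4 weeks. Replicate 3 of the 4-week group was high as well, on an array without raised glandular stomach genes. The difference was 0.59 ± 0.70 (SE, n = 4 against 4; limma adjusted p = 0.7004). Without control replicate 4 and 4-week replicate 2 it was 0.85 (limma adjusted p = 0.376).

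Defb6, a beta-defensin, did not pass the filter. Its Cy5 signal was 50.1, 65.2, 63.8 and 123 on the control arrays and 55.3, 172, 64.6 and 51.1 on the 4-week arrays. Its highest values were once more control replicate 4 and 4-week replicate 2. Camp gave Cy5 signals of 48.5 to 55.1 over all 8 arrays, not well above background on any, so no difference between these groups is given. The Defb3 probe that also lists Defb4 had its 2 highest deposited ratios on the same arrays as Ltf, 3.17 and 3.84 against 0.24 to 1.14 on the other 6.

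**Figure D2:**
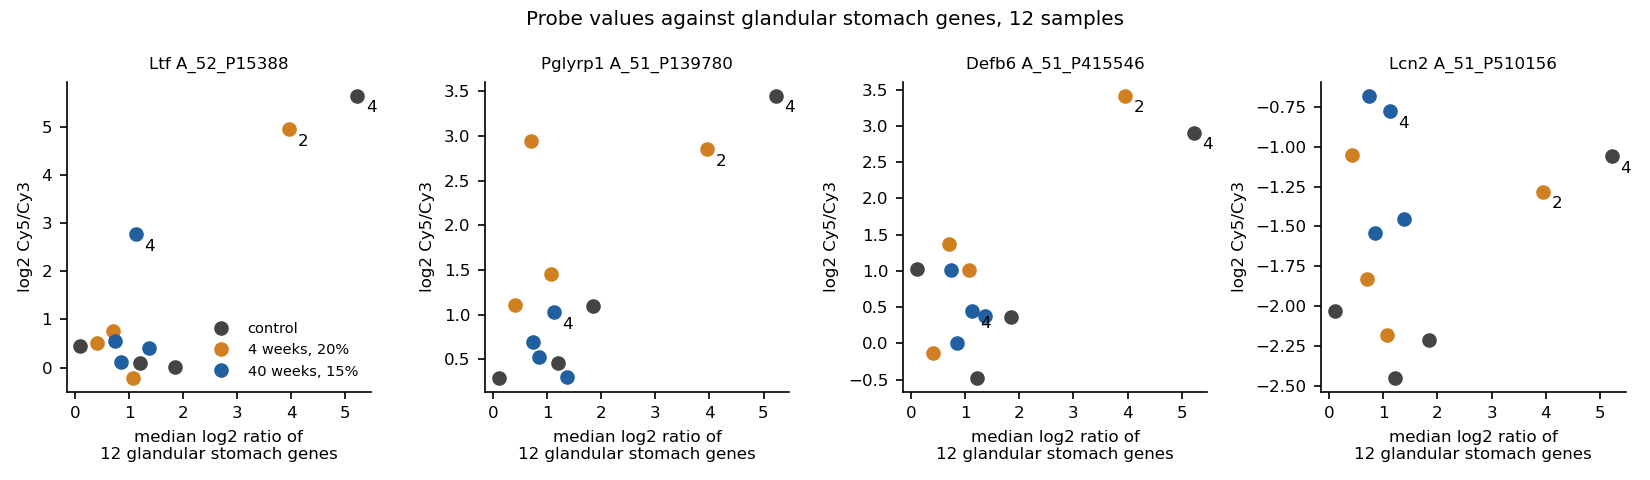
Deposited log2 ratio of Ltf (second probe), Pglyrp1, Defb6 and Lcn2 in the 12 samples against the median log2 ratio of 12 glandular stomach genes, with 3 samples marked by replicate number. Control replicate 4 and 4-week replicate 2 lie at the right at 5.22 and 3.96 and are among the highest for Ltf, Pglyrp1 and Defb6, while 40-week replicate 4 is raised for Ltf at a glandular median of 1.12.

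Sequence upstream of Ltf, Pglyrp1 and Defb6 is shown because all of them were high on control replicate 4 and 4-week replicate 2. The 250 bases before the start come from RefSeq on build GRCm38.p6, whose table held 6 of the 10 members. Capitals mark matches, on either strand, to a C/EBP-like motif TTNNGNAA or an NF-kB-like motif of 3 G, any 5 bases and 2 C, and TATAAA was searched too.
Ltf, chr9:111019042-111019291, plus strand: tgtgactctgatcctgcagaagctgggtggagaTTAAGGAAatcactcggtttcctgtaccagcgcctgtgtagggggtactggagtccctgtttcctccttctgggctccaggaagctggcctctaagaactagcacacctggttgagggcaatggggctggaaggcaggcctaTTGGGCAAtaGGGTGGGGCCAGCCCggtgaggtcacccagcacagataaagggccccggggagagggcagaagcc
Pglyrp1, chr7:18884440-18884689, plus strand: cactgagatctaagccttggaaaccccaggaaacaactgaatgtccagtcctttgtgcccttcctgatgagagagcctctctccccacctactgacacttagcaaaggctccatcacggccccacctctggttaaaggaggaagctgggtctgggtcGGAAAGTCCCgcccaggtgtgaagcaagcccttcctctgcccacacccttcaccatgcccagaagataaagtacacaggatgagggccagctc
Defb6, chr8:19225228-19225477, plus strand: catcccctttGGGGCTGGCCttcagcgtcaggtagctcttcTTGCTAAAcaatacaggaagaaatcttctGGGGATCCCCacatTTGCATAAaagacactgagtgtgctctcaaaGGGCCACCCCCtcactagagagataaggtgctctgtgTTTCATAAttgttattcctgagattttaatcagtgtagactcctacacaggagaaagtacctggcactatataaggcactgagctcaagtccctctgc
Ltf had 2 matches to the C/EBP-like motif and 3 overlapping ones to the NF-kB-like motif, Pglyrp1 had 0 and 1, and Defb6 had 3 and 4. None of these windows held TATAAA, which 12.37% of promoters did. Of 32851 promoters of the same length, 36.85% held the first and 45.8% the second, so such matches are common. A match is a run of letters and shows no binding.

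The second question is how forestomach differed after 40 weeks of 15% alcohol. These values come from the deposited table, on which scanner values of the control and 4-week arrays could be traced and 40-week values could not. At 40 weeks 3 of 8 member probes were lower than in controls, both of Defb1 and that of Pglyrp3. Over all probes 42.2% were called and 24.2% called lower, so the comparison separates the groups broadly. Of the 8, 4 had no overlap with the controls, all lower, against 41.7% of all probes in either direction and 23.9% lower. Ratios of the 40-week columns spread less across the array, with an SD of 1.02 to 1.08 over probes against 1.48 to 1.73 in the other columns.

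**Figure D3:**
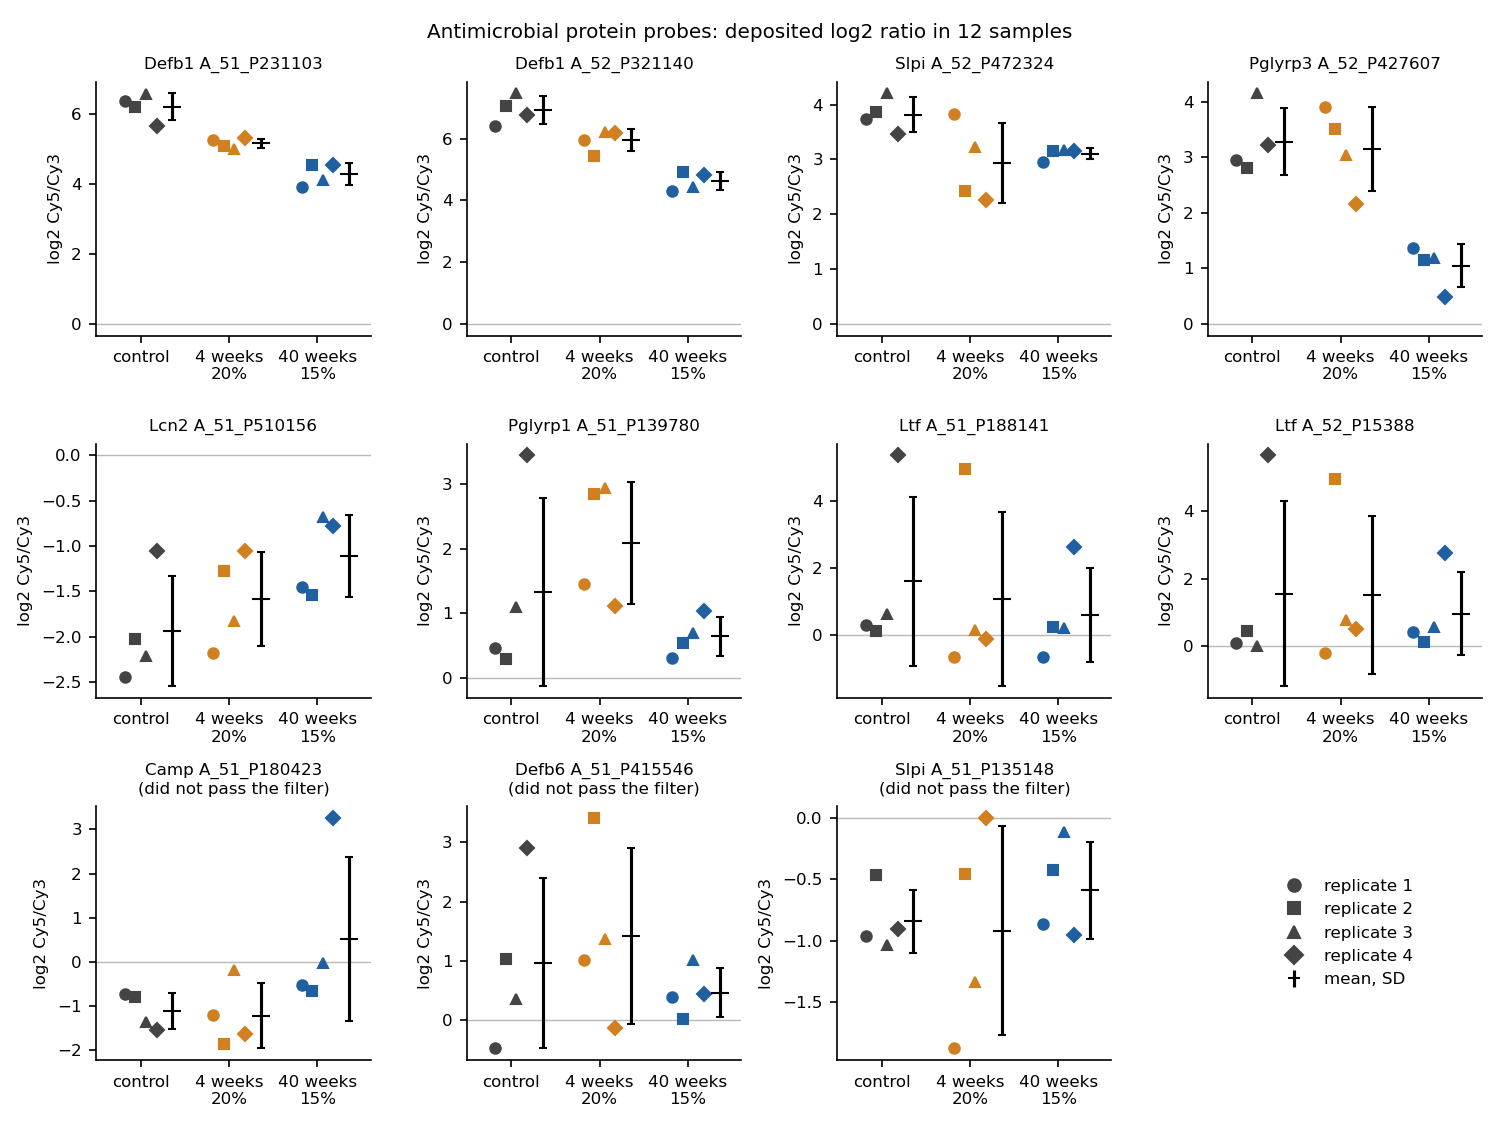
Deposited log2 ratio of forestomach over reference for the 11 probes in the 12 samples, by group and replicate, with mean and SD (n = 4) beside the points. Pglyrp3 and both Defb1 probes are lowest at 40 weeks with no overlap with controls, and Ltf and Camp are each spread by single samples.

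Pglyrp3 had deposited ratios of 2.95, 2.81, 4.15 and 3.21 in controls, 3.90, 3.50, 3.04 and 2.15 at 4 weeks, and 1.37, 1.15, 1.18 and 0.49 at 40 weeks. Every 40-week value lay below every other value. Pglyrp3 fell by 2.23 ± 0.38 against controls (SE, n = 4 against 4; limma adjusted p = 0.000716) and differed by -2.10 ± 0.38 from 4 weeks (limma adjusted p = 0.00116). The 4-week value of 2.15 is from replicate 4, whose spot was flagged as an outlier, and these fits included it. Leaving out that sample was among the alternatives below. After scaling all columns to the same spread the fall against controls was still called, at -1.50, and after quantile normalisation at -1.57. It was lower and called in all 22 alternatives run for each 40-week comparison, with adjusted p of 0.000281 to 0.0150 against controls. Without 40-week replicates 3 and 4 the difference was -2.02 (limma adjusted p = 0.0150). Among the 8 member probes, Pglyrp3 was the one that kept its direction and its call in every alternative of both comparisons. All of these used the deposited values, and none changed the background correction. The Cy3 signal of this probe was dim in controls, at 15.4 to 27.9 above local background, and well above background on 1 of 4 arrays. The scanner ratios used for the 4-week test were 0.98 to 2.08 in these controls, against deposited ratios of 2.81 to 4.15. How the 40-week difference depends on background correction was not tested.

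Defb1 had deposited ratios of 6.37, 6.20, 6.58 and 5.67 in controls, 5.24, 5.08, 5.005 and 5.30 at 4 weeks and 3.92, 4.55, 4.11 and 4.54 at 40 weeks with the first probe. The second probe gave 6.39, 7.07, 7.48 and 6.77, then 5.96, 5.45, 6.22 and 6.20, and then 4.31, 4.91, 4.43 and 4.82. Neither probe had any overlap between the 40-week group and the others. The deposited values fell by 1.93 ± 0.21 and 2.31 ± 0.25 against controls (limma adjusted p = 2.49e-05 and 2.60e-05). Without 40-week replicates 3 and 4 the differences were -1.97 and -2.32.

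The direction for Defb1 hung on the scale. With columns scaled to the same spread the differences from controls were 0.08 and -0.11, neither called, and after quantile normalisation 0.50 (limma adjusted p = 0.0330) and 0.20. Against 4 weeks they turned from -0.88 and -1.34 to 0.75 and 0.45 with scaling and to 0.72 and 0.31 after quantile normalisation. The first probe then passed the test as higher (limma adjusted p = 0.0122 and 0.00484). A lower level of Defb1 at 40 weeks is therefore shown on the deposited scale only.

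Slpi had deposited ratios of 3.74, 3.86, 4.21 and 3.46 in controls and 2.96, 3.16, 3.17 and 3.15 at 40 weeks. The groups did not overlap, and the 40-week values were close together. The difference was -0.71 ± 0.30 (SE, n = 4 against 4; limma adjusted p = 0.0740), short of the threshold in the fit over 12 samples. It turned to 0.67 with scaled columns (limma adjusted p = 0.0689) and to 0.80 after quantile normalisation (limma adjusted p = 0.0437). Against 4 weeks it was 0.17 ± 0.30 (limma adjusted p = 0.669), and 1.30 and 1.40 under those 2 scalings, both called.

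**Figure D4:**
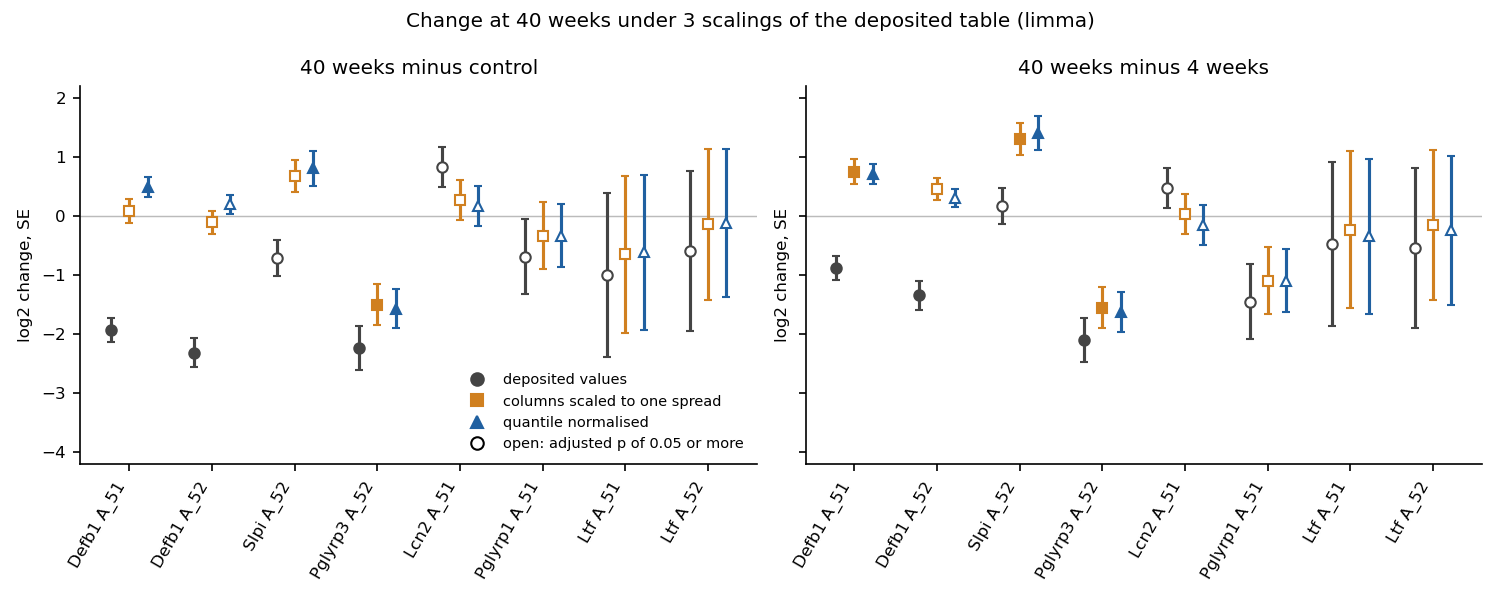
Log2 change with its SE for the 8 tested probes, 40 weeks minus control on the left and 40 weeks minus 4 weeks on the right, from the deposited values and from 2 rescalings, with open symbols where the limma adjusted p was 0.05 or more. Pglyrp3 lies below 0 and filled in all 3, while Defb1 and Slpi change sign or call between them.

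Among the 6 genes tested, Lcn2 was the one whose ratio was higher at 40 weeks than in controls on the deposited scale. Its deposited ratios were -2.45, -2.03, -2.21 and -1.06 in controls and -1.45, -1.54, -0.68 and -0.78 at 40 weeks. The groups overlapped through control replicate 4, the array with glandular stomach transcripts. The difference was 0.83 ± 0.34 (SE, n = 4 against 4; limma adjusted p = 0.0664). Without that control it was 1.12 (limma adjusted p = 0.0131). Replicates 3 and 4 of the 40-week group, which stood apart in sex-chromosome genes, held the highest values, and without them the difference was 0.44 (limma adjusted p = 0.454). With scaled columns it was 0.27 (limma adjusted p = 0.551).

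Ltf at 40 weeks was again high in a single sample. Its second probe gave deposited ratios of 0.41, 0.12, 0.56 and 2.77, and its first gave -0.67, 0.24, 0.21 and 2.62, with replicate 4 the highest for both. Glandular stomach genes were not raised in that sample, with a median of 1.12 against 0.74 to 1.37 in the 40-week group. The differences from controls were -0.59 ± 1.35 and -0.999 ± 1.38 (limma adjusted p = 0.751 and 0.588) and turned to 0.78 and 0.26 without control replicate 4 and 4-week replicate 2.

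Camp was also highest in 40-week replicate 4. Its deposited ratios were -0.52, -0.67, -0.03 and 3.27 at 40 weeks, -0.73, -0.79, -1.37 and -1.53 in controls and -1.20, -1.86, -0.17 and -1.62 at 4 weeks. Since Camp was not above background on the 8 arrays with scanner signals, no size is given for the gap. Ngp, also not well above background on those 8 arrays, was 2.07 in 40-week replicate 4 and -0.50 to -0.13 in the other 40-week samples. It was the 1 of 11 neutrophil genes over 1 log2 unit above the other samples of the group. The list had a median of 0.04 there. Retnlg and Csf3r were 3.17 and 2.165 in 40-week replicate 3 and 2.51 and 1.55 in replicate 4. The part of neutrophil RNA in the Camp and Ltf values of that sample was not tested. Camp did not pass the filter and was left out of the main fits.

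Pglyrp1 had deposited ratios of 0.30, 0.53, 0.70 and 1.03 at 40 weeks, against 0.46, 0.30, 1.10 and 3.45 in controls and 1.46, 2.85, 2.94 and 1.11 at 4 weeks. The 40-week and 4-week groups did not overlap. The difference was -1.45 ± 0.63 against 4 weeks (limma adjusted p = 0.0825) and -0.69 ± 0.63 against controls (limma adjusted p = 0.406). Without control replicate 4 and 4-week replicate 2 these were -1.20 (limma adjusted p = 0.0348) and 0.02. Defb6 had ratios of 0.38, 0.01, 1.01 and 0.44 at 40 weeks, inside the range of the controls.

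The third comparison set 40 weeks of 15% against 4 weeks of 20%, groups that differ in both dose and duration. Of the 8 member probes, 3 were called lower, those of Defb1 and Pglyrp3, where 43% of all probes were called and 24.7% called lower. With scaled columns, and likewise after quantile normalisation, 2 were called higher (Slpi and the first Defb1 probe) and 1 lower (Pglyrp3). Over all probes 5946 were called higher and 6676 lower with scaled columns, and 5412 and 7636 after quantile normalisation. Both differences from controls share the same 4 control samples, so this direct contrast is the test of a difference between the alcohol groups. The groups did not overlap for 4 of the 8, all lower, against 46.8% of all probes in either direction and 26.7% lower.

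Other genes of the same defences were counted beside the members, with 1 probe per gene. At 4 weeks, 0 rose and 3 fell of 34 other antimicrobial genes, with a median of -0.28 against -0.02 for all 20693 genes, of which 44 rose and 141 fell. They were the calprotectin subunit S100a9, which binds zinc and calcium, and the whey-acidic-protein genes Wfdc2 and Wfdc5, by 1.55, 1.42 and 0.91. Klk5, a protease that processes cathelicidin in skin, was the 1 called of 19 receptors and partners, at -1.36 ± 0.18 (limma adjusted p = 0.0396). In Cy5 alone S100a9, Wfdc2, Wfdc5 and Klk5 differed by -0.47, -0.02, 0.66 and 0.15, and in Cy3 alone by 0.91, 1.25, 1.41 and 1.33. None of the 4 was called when arrays were scaled to the same spread, but neither was any other probe, with 0 of 30455 called. Squamous keratinocyte markers moved further in the same ratios, with all 13 lower, 4 of them called, and a median of -1.07. With arrays scaled to the same spread 0 of the 13 were called, as of all probes, and their median was -0.76. In Cy5 alone their median was 0.15. Their part in the member values was not tested. Of 38 sensors and inducers, such as Toll-like receptors and interleukins, 0 were called.

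At 40 weeks against controls, 2 rose and 16 fell of the 34 other antimicrobial genes, a median of -1.19 against -0.09 for all genes (3824 rose and 4932 fell). With scaled columns 0 rose and 16 fell, and after quantile normalisation 0 rose and 15 fell. Over all 30455 probes 5506 rose and 6108 fell with scaled columns, and 5171 and 6777 after quantile normalisation. Without rescaling, 5 of the sensors and inducers rose and 7 fell, and of the receptors and partners 1 rose and 6 fell. The largest falls were in the epithelial interleukin-36 genes Il1f9 and Il1f6, by 3.74 ± 0.25 and 3.18 ± 0.21 (limma adjusted p = 1.56e-06 each). Il1a, an interleukin released from keratinocytes, fell by 2.98 ± 0.38. Retnla, Wfdc12 and Klk5 fell by 2.99, 2.95 and 2.92. With scaled columns these 6 differences were still lower and called, from -1.58 for Il1a to -1.25 for Klk5.

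Squamous keratinocyte markers moved in the same comparison. All 13 were called lower at 40 weeks on the deposited scale, with a median change of -2.22, and the median ratio of the list was 2.79 to 3.26 at 40 weeks against 5.65 to 6.24 in controls. With scaled columns 9 were called lower and 2 higher, and the median change was -1.05. Over all 30455 probes 6108 were then called lower and 5506 higher. Of 7 macrophage markers 6 fell and Cd68 rose by 0.63, and with scaled columns 5 fell and 0 rose. Of 8 neutrophil markers 5 fell and 1 rose, and with scaled columns 2 fell and 0 rose. How far these shifts enter the member values was not tested.

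Between the alcohol groups, 2 rose and 17 fell of the other antimicrobial genes, with 3787 and 4796 over all genes. With scaled columns 3 rose and 11 fell, and after quantile normalisation 3 rose and 12 fell. Of the 13 squamous markers 10 fell and 0 rose, against 2 and 4 with scaled columns. Saa3, an acute-phase protein, rose by 2.66 ± 0.56 (limma adjusted p = 0.00288), with deposited ratios of -2.46, -2.27, -0.54 and -1.08 at 40 weeks -4.32, -3.80, -4.78 and -4.09 at 4 weeks and -4.06, -3.81, -4.36 and -1.72 in controls. Nfkbiz, an inducer of Lcn2 and other antimicrobial genes downstream of interleukin-17, rose by 1.96 ± 0.40 (limma adjusted p = 0.00239). The differences for Il1a, Il1f9, Il1f6 and the lipid-binding Bpil2 were -2.997, -2.63, -2.09 and -2.19. All 6 kept their direction and their call with scaled columns and after quantile normalisation. Of the sensors and inducers 6 rose and 7 fell.

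The probes most like each member were found by Pearson correlation of deposited ratios over the 12 samples, which fall into 3 groups, so a high value largely follows the group differences. Defb1 was most like Cbr3, Rspo1 and Prdm16 (0.99 each), and Pglyrp3 like Gm1943, Nudt16l1 and Tmed2 (0.98 each). Slpi was most like Hmx1, Lrrc2 and Fut4-ps1 (0.96, 0.95 and 0.93), and Lcn2 like Hsd3b7, Vav1 and Gngt2 (0.93 each). Ltf, whose values are set by 3 samples, was most like Tmem8, Dtx4 and Slc9a2 (0.97, 0.96 and 0.96), and Pglyrp1 like Pmepa1 and Spire2 (0.93 each) and a transcript without a symbol.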

How the data were processed

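Scanner output was used for the control and 4-week arrays. It holds mean spot and local background signals as linear intensity, per the file headers, log10 ratios of the software's processed signals as deposited, and other values of 0 or 1 that flag spots, as deposited. Headers name Agilent Feature Extraction 10.7.3.1, while the submitters' processing notes name 9.1. For all 12 samples the authors deposited a table of log2 ratios. Its values for the 8 arrays matched the log2 ratio of background-subtracted signals minus a smooth curve over intensity within a tolerance of 0.05 for 96.2% to 99.8% of probes, and spots not above local background held 0. How the 40-week columns were made is not given in the sources used here.

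Scanner signals were corrected with normexp (offset 50) and loess within arrays, with control and outlier spots left out. Of 45018 spots, 1639 were controls. The number of arrays limits precision, and the share of spots marked well above background in Cy5 was 64.8% to 78.8%. Limma 3.58.1 (R 4.3.3) was fitted to all 30455 kept probes, on scanner ratios for 4 weeks against control and on the deposited table with all 12 samples for the other comparisons, with Benjamini-Hochberg adjustment over all probes. Channels alone were quantile normalised. Tested on simulated data with 200 changed probes, the fits recovered 47.1% of 2-fold changes at 4 weeks and 60.3% at 40 weeks against control. For 4-fold changes they recovered 92.4% and 89.4%. In the real data 12857 probes were called at 40 weeks against control, so recovery there may differ. Members and gene lists were chosen with earlier results of these data known. All member probes are named. From the other lists, up to 6 called genes per comparison with the largest change are named. The 3 probes most like each member are named too. Squamous, neutrophil, glandular stomach, pancreas, adipocyte, macrophage and smooth muscle markers were measured. Of 7 adipocyte genes 1, 2 and 1 were called lower at 4 weeks, at 40 weeks and between the alcohol groups. Of 6 smooth muscle genes 3, 6 and 3 were, all on the unscaled ratios. Over all 20693 genes 141, 4932 and 4796 were. With scaled columns 1 adipocyte gene was lower in each 40-week comparison. Smooth muscle then had 2 lower and 1 higher against control, and 1 lower and 3 higher against 4 weeks. Over all 30455 probes 6108 were then lower and 5506 higher against control, and 6676 and 5946 against 4 weeks.

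Same-numbered samples did not all deviate together, with correlations of deviations of -0.46 to 0.32 on scanner ratios and -0.41 to 0.42 on deposited values. Between control and 40 weeks all 4 were above 0 (0.196, 0.079, 0.090 and 0.156), but 2 were under 0.1, so numbers were not taken to pair samples. Alternatives changed background correction, normalisation, scale, filter, channels, and left out samples. Leaving out control replicate 4 and 4-week replicate 2 together was chosen after seeing the data. No exact test over samples was needed beside the fits.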

Additional observations from a re-analysis of the deposited data

Results flagged for a closer look

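Single samples stood far from the other 3 of their group, by a gap over range above the 95% critical value, in 6 of 33 groups of member values tested. Chance alone flags about 1 group in 20 where groups are independent. Several groups here share a gene and its samples, so 6 of 33 cannot be weighed against that rate. Ltf was 5.38 and 5.66 in control replicate 4 with its first and second probe, against 0.10 to 0.61 and 0.01 to 0.45 in the other controls. It was 4.97 in 4-week replicate 2 with the first probe and 2.77 in 40-week replicate 4 with the second. Camp was 3.27 in 40-week replicate 4, against -0.67 to -0.03 in the other 3. Its probe did not pass the filter on dim probes, which this rule did not use. Slpi was 2.96 in 40-week replicate 1, where the other 3 lay within 3.15 to 3.17.

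The alcohol groups differed by limma's contrast of 40 weeks against 4 weeks for Pglyrp3 (-2.10) and for both Defb1 probes (-0.88 and -1.34), all on the deposited scale. These groups differ in both dose and duration, and the 40-week group had no control of its own duration. The difference for Pglyrp3 kept its sign when the columns were scaled to the same spread, and those for Defb1 did not.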

How the results depend on the processing

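Member probes called at 4 weeks numbered 0, but 1 without background correction, 2 with scanner software ratios, 2 with deposited values and 1 in Cy3 alone. Over all 30455 probes these settings called 610, 652, 1615 and 2168, in that order. At 40 weeks against control 3 were called, but 1 with columns scaled to the same spread. Over all probes 12857 and 11614 were called there. Leaving out 1 sample gave 0 to 0 at 4 weeks and 3 to 4 in both 40-week comparisons. Calls over all probes were then 10432 to 13768 for 40 weeks against control and 10874 to 14051 against 4 weeks. Calls over all probes at 4 weeks ranged from 0 to 2168 over 15 other alternatives and from 0 to 22 with 1 sample left out, against 230. With the replicate block they numbered 0 at 4 weeks, and 4 and 3 member probes were called at 40 weeks against control and against 4 weeks, Lcn2 being the addition (0.83, limma adjusted p = 0.0195). Slpi at 40 weeks against control was called with array weights and within the 2 groups alone (limma adjusted p = 0.0287 and 0.0093), and without 4-week replicate 1 or 4 (limma adjusted p = 0.0241 and 0.0483).

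Signs turned as follows. In Cy3 alone at 4 weeks the first Defb1 probe was 0.55, the second 0.60, Slpi 0.63 and the first Ltf probe 0.15. That Ltf probe was 0.23 with median centring and 0.16 in Cy5 alone. The second Ltf probe at 4 weeks was -0.11 without background correction, -0.0033 with offset 16, -0.27 with software ratios, -0.48 with array weights and -0.046 with deposited values. Pglyrp3 at 4 weeks was -0.67 with software ratios and -0.13 with deposited values. At 40 weeks against control, scaling gave 0.083 for the first Defb1 probe and 0.67 for Slpi, and quantile normalisation gave 0.50, 0.20 and 0.80 for the Defb1 probes and Slpi. Against 4 weeks, scaling gave 0.75 and 0.45 for Defb1 and quantile normalisation 0.72 and 0.31, with Lcn2 at -0.15. Leaving out the 3 arrays that carried glandular stomach or pancreas genes, Pglyrp1 was 0.26 and Ltf 0.40 and 0.69 against control, and Ltf 0.82 and 0.61 against 4 weeks. Without control replicate 4 and 4-week replicate 2, Pglyrp1 was 0.023 and Ltf 0.26 and 0.78 against control, and 0.82 and 0.61 against 4 weeks. With 1 sample left out in turn, Ltf at 4 weeks ranged from -1.29 to 0.995 (first probe) and from -1.14 to 1.23 (second). At 40 weeks it ranged from -1.67 to 0.26 and from -1.19 to 0.78 against control, and from -1.15 to 0.82 and from -1.14 to 0.61 against 4 weeks. Pglyrp1 against control ranged from -1.03 to 0.023, and Slpi against 4 weeks from -0.055 to 0.47. The cause was not tested.

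Dim probes (Camp, Defb6, second Slpi) limit what can be said of their transcripts, and 40-week scanner signals were not analysed here. The dim Cy3 signal of Pglyrp3 in controls limits what can be said of the size of its ratios.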

Other observations

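Probes were ranked by how far 40-week replicate 4, the sample with the highest Camp, lay above the next highest sample. Camp ranked 1 of 41174, Glycam1 3, Shisa3 4, Ngp 10 and Spic 11. The lymphotoxin gene Lta ranked 16, Slc16a6 18, and the B cell surface genes Cd22 and Cd72 ranked 19 and 21. Probes named by accession or predicted gene held other places. These genes were named after their values were seen. Cd22 was 2.68 there against at most 1.57 in the other 11 samples, and Lta was 0.06 against at most -1.08. Glycam1, an endothelial mucin of lymph nodes, was 2.70 against at most 0.92, but did not pass the filter on dim probes. Neither did Ngp or Spic.

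Beta-defensin 14 (Defb14), like Defb1 a product of epithelium, had deposited ratios of 6.33 to 7.04 in controls, 4.80 to 5.67 at 4 weeks and 4.07 to 4.39 at 40 weeks. The groups did not overlap on that scale. Over all probes 41.7% and 46.8% did not overlap at 40 weeks against control and 4 weeks, and 11.7% at 4 weeks on scanner ratios. On scanner ratios Defb14 was not called at 4 weeks, at -1.37 ± 0.41 (limma adjusted p = 0.146). Its 40-week differences under other scalings are not given here. Defb14 was likewise chosen after its values were seen.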
